A study of Mus musculus with 2 samples.

Results

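The family of miR-15, miR-16, miR-195 and miR-497 is a set of small regulatory RNAs that share 1 targeting sequence and are known for slowing cell division. It was measured here as 6 miRNA genes, Mir15a, Mir16-1, Mir15b, Mir16-2, Mir195a and Mir497, of 1974 in all. The members were chosen by name: the first 5 by reads on their own strand, and Mir497 by reads on the strand opposite to the annotated gene Mir497b, which overlaps it and under which that site was counted. Liver of B6NCrl mouse embryos (a C57BL/6N stock) was taken at embryonic day 15.5, from males and females pooled, and total RNA below 30 nucleotides was sequenced. There was 1 group of 2 libraries with no treatment, replicate 1 from a pool of 78 embryos and replicate 2 from a separate pool of 62. The data therefore hold no contrast between conditions, and the spread between libraries is that of pools and library making. In whole tissue, fewer cells of a type and less RNA per cell cannot be told apart.

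A mature miRNA loads into an Argonaute protein and pairs with messenger RNAs mainly through its seed, bases 2 to 8 from its 5′ end, which lowers the output of those messages. Targets known for this family include the D and E type cyclins, Cdk6, the checkpoint kinases Chek1 and Wee1, the survival factor Bcl2 and the progenitor factor Myb. The human counterparts of Mir15a and Mir16-1 lie in a region often deleted in chronic lymphocytic leukaemia, and miR-195 is known for rising in heart muscle cells as they leave the cell cycle after birth. At mid to late gestation the liver holds dividing hepatoblasts together with large numbers of dividing red cell precursors.

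The 5′ arm sequences are shown because they define the family and show which members share a mature sequence. The seed is in capitals, the sequences are from RefSeq (GRCm38.p6), and all 6 members had an entry. The last sequence is that of Mir322, a gene outside the family's clusters with the same seed.
miR-15a-5p: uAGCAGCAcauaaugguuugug
miR-15b-5p: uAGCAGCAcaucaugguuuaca
miR-16-5p (Mir16-1 and Mir16-2): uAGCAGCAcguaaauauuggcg
miR-195a-5p: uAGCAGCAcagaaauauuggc
miR-497a-5p: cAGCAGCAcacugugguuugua
miR-322-5p: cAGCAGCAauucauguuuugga

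Bases 2 to 9 were identical in all 6 members, and the sequences parted after that. Counted from the 5′ end without gaps, miR-15a-5p and miR-15b-5p were alike at 18 of 22 positions, and miR-15a-5p and miR-497a-5p at 17 of 22. The sequence of miR-195a-5p differed from miR-16-5p at 2 of 21 positions, G10A and U11G, with the miR-16-5p base first. By contrast, miR-16-5p and miR-497a-5p were alike at 11 of 22 positions. The 6 members thus carried 5 distinct 5′ arms, since Mir16-1 and Mir16-2 make the same one.

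That identity limits what can be said of miR-16. Both hairpins are printed below with their longest common run around the mature miRNA in capitals, 23 bases, which is the mature sequence and 1 further base at its 3′ end.
Mir16-1 hairpin: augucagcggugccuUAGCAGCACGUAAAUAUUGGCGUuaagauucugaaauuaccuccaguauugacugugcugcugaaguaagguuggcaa
Mir16-2 hairpin: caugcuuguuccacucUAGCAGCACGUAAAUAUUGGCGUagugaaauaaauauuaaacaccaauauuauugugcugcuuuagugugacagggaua

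A read that lies wholly inside the run in capitals matches both genes. In the deposited tables, reads that map to several places stand in a row of their own, 29.3% of all reads in replicate 1 and 31.1% in replicate 2. The sources used here name no counter, and whether shared miR-16-5p reads are in that row or in the gene counts was not tested. The counts of Mir16-1 and Mir16-2 are therefore uncertain and are not taken as the total of miR-16. If shared reads stand in that row, both counts and every sum that holds them are too low. The 3′ arms tell the loci apart, as they differ even in the bases at seed position, shown in capitals.
miR-16-1-3p: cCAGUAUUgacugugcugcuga
miR-16-2-3p: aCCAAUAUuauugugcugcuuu

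Among 1005 RefSeq hairpins, the mature arms listed for Mir15a, Mir15b, Mir195a and Mir497 were found in no hairpin of another gene. The genome outside these hairpins was not searched. A count is for the whole precursor, so reads of its 5′ and 3′ arms were added together.

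The members lie in 3 pairs of close neighbours, with positions in GRCm38 from annotation release M21. On the minus strand of chromosome 14, Mir15a (ENSMUSG00000093007.1, 61632027 to 61632110) and Mir16-1 (ENSMUSG00000092995.1, 61631880 to 61631972) are 54 bp apart within the long noncoding RNA gene Dleu2. All 8 Dleu2 transcripts that overlap Mir15a do so with an intron, and 1 of the 9 that overlap Mir16-1 has an exon there. On the plus strand of chromosome 3, Mir15b (ENSMUSG00000065580.1, 69009772 to 69009835) and Mir16-2 (ENSMUSG00000065606.1, 69009902 to 69009996) are 66 bp apart in an intron of Smc4, which encodes a condensin subunit that compacts chromosomes for mitosis. The identifier of Mir15b carries another version number in M21, so its counted interval may differ from the one given. On the plus strand of chromosome 11, Mir497 (70234717 to 70234800) lies 241 bp upstream of Mir195a (ENSMUSG00000065411.2, 70235042 to 70235135). M21 places no other gene over Mir195a, and over Mir497 only Mir497b, on the minus strand.

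All 6 members were detected, with at least 10 reads in both libraries, and their mean levels spanned from 191 to 9918 CPM. Levels are in CPM, a gene's counts per 1000000 sense miRNA counts of its library. A small RNA is read from end to end as 1 read, so no scaling by length was applied, and how readily each sequence takes up adapters was not calibrated. Values after ± are SDs over the 2 libraries, and intervals are exact 95% Clopper-Pearson intervals, which cover counting error only, since reads amplified without molecular identifiers are not independent molecules.

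By these counts, with those of Mir16-1 and Mir16-2 uncertain, Mir15a was the highest member. It had 52915 reads or 9570 CPM in replicate 1 (interval 9489 to 9652). In replicate 2 it had 32544 reads or 10267 CPM (10156 to 10378), and its mean was 9918 ± 492 CPM. Its neighbour Mir16-1 had 25972 and 16078 reads, which is 4697 and 5072 CPM. In both genes of chromosome 14 replicate 2 was the higher library, and the intervals of the libraries did not overlap.

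Mir15b, in Smc4, had 14477 and 8301 reads. Its level of 2618 CPM in replicate 1 and 2619 CPM in replicate 2 was nearly the same, and the gap was far inside counting error (2576 to 2661 and 2563 to 2676). Mir16-2 had 4550 and 2598 reads, or 823 and 820 CPM. On chromosome 3 the libraries were thus alike within their intervals.

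Mir497 and Mir195a were the lowest members. Mir497 had 1192 and 662 reads, or 216 CPM (204 to 228) and 209 CPM (193 to 225). Mir195a had 1071 and 598 reads, or 194 CPM (182 to 206) and 189 CPM (174 to 204). Replicate 1 was the higher library in both, with overlapping intervals. Mir497 stood above Mir195a in each library, though their intervals overlapped too.

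**Figure D1:**
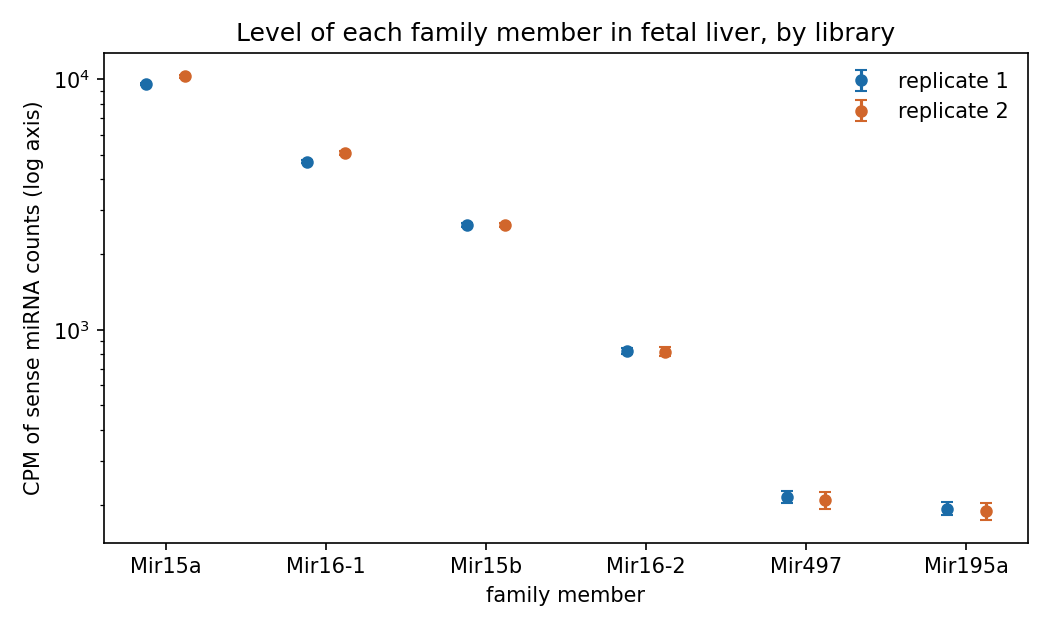
Level of each member in CPM (log axis) in replicate 1 (blue) and replicate 2 (orange), with points for libraries and bars for exact 95% intervals. The members run from Mir15a at 9570 and 10267 CPM to Mir195a at 194 and 189 CPM, and the libraries lie close together at every member.

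By cluster, the chromosome 14 pair held 79.4% ± 0.882 of the family's counts, the chromosome 3 pair 18.5% ± 0.751 and the chromosome 11 pair 2.17% ± 0.132. Counts of the chromosome 14 pair were 4.15 times those of the chromosome 3 pair in replicate 1 (interval 4.08 to 4.21) and 4.46 times in replicate 2 (4.37 to 4.56). The chromosome 3 pair had 8.41 and 8.65 times the counts of the chromosome 11 pair, with intervals of 8.05 to 8.79 and 8.16 to 9.18 that overlap. The differences between clusters were thus several times larger than those between libraries. Shares that involve Mir16-1 and Mir16-2 are as uncertain as their counts.

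The arms of Mir15a, Mir15b and Mir195a were found in no other of the 1005 hairpins searched. Mir15a counts were 3.66 times those of Mir15b in replicate 1 and 3.92 times in replicate 2. They were 49.4 and 54.4 times those of Mir195a. Together the 6 genes took 1.81% of sense miRNA counts in replicate 1 (1.80 to 1.82) and 1.92% in replicate 2 (1.90 to 1.93). The mean share was 1.86% ± 0.0747.

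In the order of all 1974 genes by mean CPM, Mir15a ranked 27, Mir16-1 44, Mir15b 58, Mir16-2 95, Mir497 156 and Mir195a 164. Every gene but Mir497 was ranked by its own-strand counts. Genes counted only opposite to another gene, such as Mir142 (35024 and 41483 CPM), thus have no place in this order. The true places of the members may therefore be lower than given. Those of Mir16-1 and Mir16-2 are also as uncertain as their counts. Each member was set against the genes just above and below it. Mir15a lay between Mir379 and Mir541, both miRNAs of the imprinted Dlk1-Dio3 domain, at 10424 ± 727 and 9686 ± 568 CPM. Mir16-1 lay between Mir381 (5224 ± 449 CPM) and Mir423 (4765 ± 322 CPM). Within each library Mir379 stood above Mir15a, and Mir381 above and Mir423 below Mir16-1. Mir541 was above Mir15a in replicate 1 (10088 against 9570 CPM) and below it in replicate 2 (9285 against 10267 CPM). Taken across libraries, the values overlapped in all 4 comparisons, so the gaps were small beside the spread between libraries.

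Mir15b was the exception: its libraries lay above both values of the next gene down, Mir341 (2294 and 2443 CPM), while they fell between those of the next gene up, Mir376c (2687 and 2583 CPM). Mir16-2 was bracketed by Mir27b (828 ± 74.5 CPM) and Mir188 (820 ± 46.5 CPM). Mir497 lay between Mir1981 and Mirlet7a-2, and Mir195a between Mir770 and Mir92-2. For these 3 members the values again overlapped on both sides. Within the family the order was the same in both libraries.

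**Figure D2:**
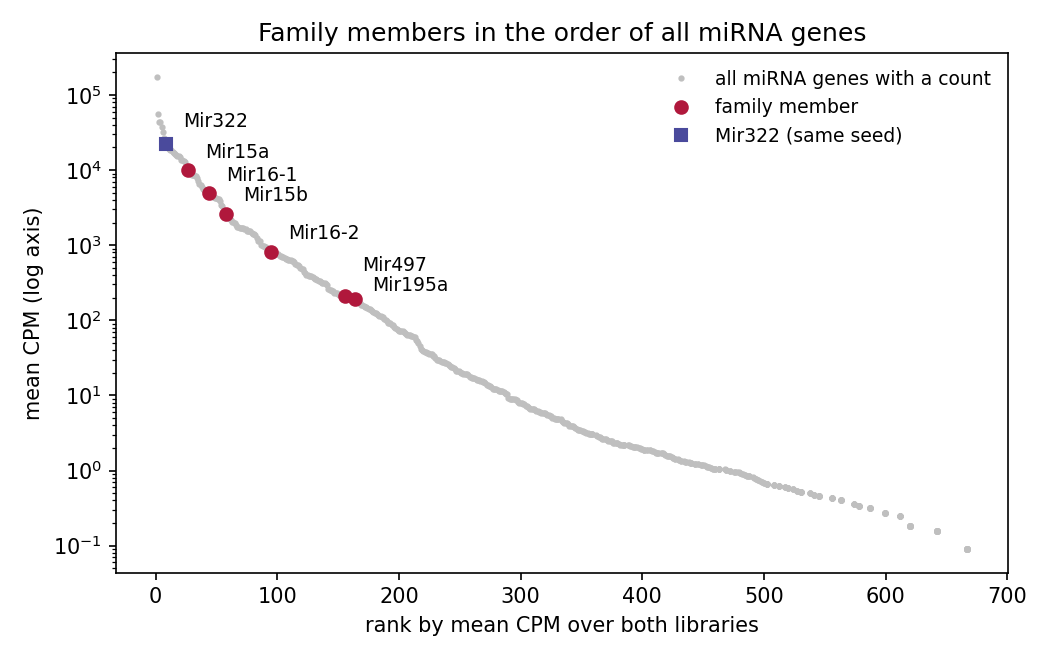
Mean CPM over both libraries (log axis) against rank for all miRNA genes with a count (grey), with the 6 family members in red and Mir322, which has the same seed, as a blue square. The members spread from rank 27 to rank 164, and Mir322 stands above all of them at rank 9. Other genes counted only opposite to another gene, such as Mir142, are not in this order.

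The reads assigned to Mir497 came almost wholly from 1 strand. At the Mir497b row, a gene of 125 bp on the minus strand (ENSMUSG00000070109.2, 70234692 to 70234816), 1192 and 662 reads lay on the plus strand, where Mir497 is, and 2 and 0 lay on the strand of Mir497b itself. Both minus-strand counts are under the 3 reads that a count of 0 allows. The other members showed the same one-sidedness: opposite-strand reads were 0 in both libraries at Mir15a, Mir16-1, Mir15b and Mir16-2, and 2 and 0 at Mir195a.

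The libraries were then compared gene by gene, to ask how closely separate pools match in this family. On TMM-scaled sizes Mir15a and Mir16-1 were higher in replicate 2 and the other 4 members did not pass. Each gene was tested by a two-sided exact conditional binomial test with Benjamini-Hochberg adjustment over 457 genes, with 0.05 as the threshold. Only counting error enters this test, so a call says that these libraries differ, not conditions. Of all genes tested, 38.5% passed it, 19.7% higher and 18.8% lower in replicate 2, against 2 of 6 members higher and 0 lower. The share was larger at high levels. Of the 188 genes averaging 100 CPM or more, as all members did, 114 passed, 58 higher and 56 lower. The members' share thus lay near that of all genes and below that of genes at such levels. With 6 members, whether it differs from either was not tested.

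The log2 ratio of replicate 2 over replicate 1 was 0.087 for Mir15a (95% interval 0.067 to 0.11, exact binomial adjusted p = 1.23e-16), a level 1.06 times as high. For Mir16-1 it was 0.097 (0.068 to 0.13, exact binomial adjusted p = 2.20e-10). Both lay within the general spread. Among the 188 genes averaging 100 CPM or more, log2 ratios had an SD of 0.202 and a median absolute size of 0.113. Of these genes, 74 had a smaller ratio than Mir15a in absolute size. With the spread over genes added to counting error (edgeR exact test, common dispersion, a coefficient of variation of 14.6%), 0 members passed, with an adjusted p of 1 for each and 0 at an unadjusted p under 0.05. That dispersion was estimated from the same 2 libraries, so the difference tested is itself counted as spread. With it, ratios as small as these could hardly pass, and the outcome does not show that the libraries are alike.

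The ratio was -0.014 for Mir15b (-0.053 to 0.025), -0.020 for Mir16-2 (-0.090 to 0.050), -0.052 for Mir195a (-0.20 to 0.094) and -0.060 for Mir497 (-0.20 to 0.078). Adjusted p-values from the exact binomial test ran from 0.543 to 0.715. The intervals of Mir195a and Mir497 are the widest, so differences up to about their bounds remain compatible with these counts. The median over the 6 members was -0.017, beside -0.014 over all genes tested, while the summed share, 79.4% of it from Mir15a and Mir16-1, was higher in replicate 2.

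**Figure D3:**
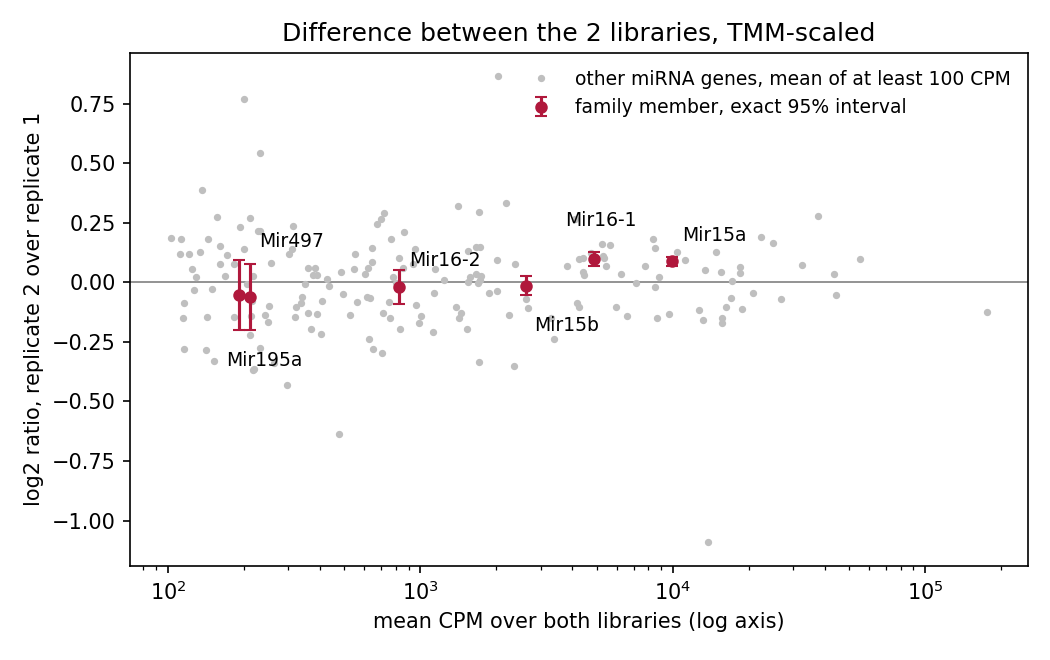
Log2 ratio of replicate 2 over replicate 1 on TMM-scaled sizes against mean CPM (log axis), for genes averaging 100 CPM or more, members in red with exact 95% intervals. Mir15a and Mir16-1 lie at 0.087 and 0.097, and the intervals of the other 4 members include 0.

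Neighbouring miRNA genes are often cut from 1 primary transcript, and their ratio can be compared without a library size. In all 3 pairs of the family the ratio was nearly the same in both pools. Mir15a had 2.04 times the counts of Mir16-1 in replicate 1 (interval 2.01 to 2.07) and 2.02 times in replicate 2 (1.99 to 2.06). Mir15b had 3.18 times the counts of Mir16-2 (3.08 to 3.29) and 3.20 times (3.06 to 3.34). Mir497 had 1.11 times the counts of Mir195a in each library (1.02 to 1.21 and 0.990 to 1.24). Ratios that involve Mir16-1 or Mir16-2 are as uncertain as their counts.

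Each pair of adjacent genes within 10 kb on 1 strand, both with at least 10 reads in both libraries, was tested with a two-sided Fisher exact test and adjusted over 102 pairs. Of all pairs 35.3% had a different ratio in the libraries, against 0 of 3 in the family (adjusted p of 0.772, 0.924 and 0.963 by Fisher's exact test, 0 of 3 at an unadjusted p under 0.05). The change of the ratio, on the log2 scale, was -0.0094 for Mir15a over Mir16-1 (95% interval -0.044 to 0.025) and 0.0061 for Mir15b over Mir16-2 (-0.074 to 0.086). For Mir497 over Mir195a it was -0.0077 (-0.21 to 0.19), the least precise of the 3. The median absolute change over all pairs was 0.151, a size that the interval for Mir497 over Mir195a takes in. Of 102 pairs, 6 were at or below 0.0094, the largest change in the family. The 3 family pairs are among these 6 by the choice of that limit. Pairs in longer clusters share genes and are not independent. The change in Mir15a was therefore matched in size by that of Mir16-1, a gene 54 bp away.

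**Figure D4:**
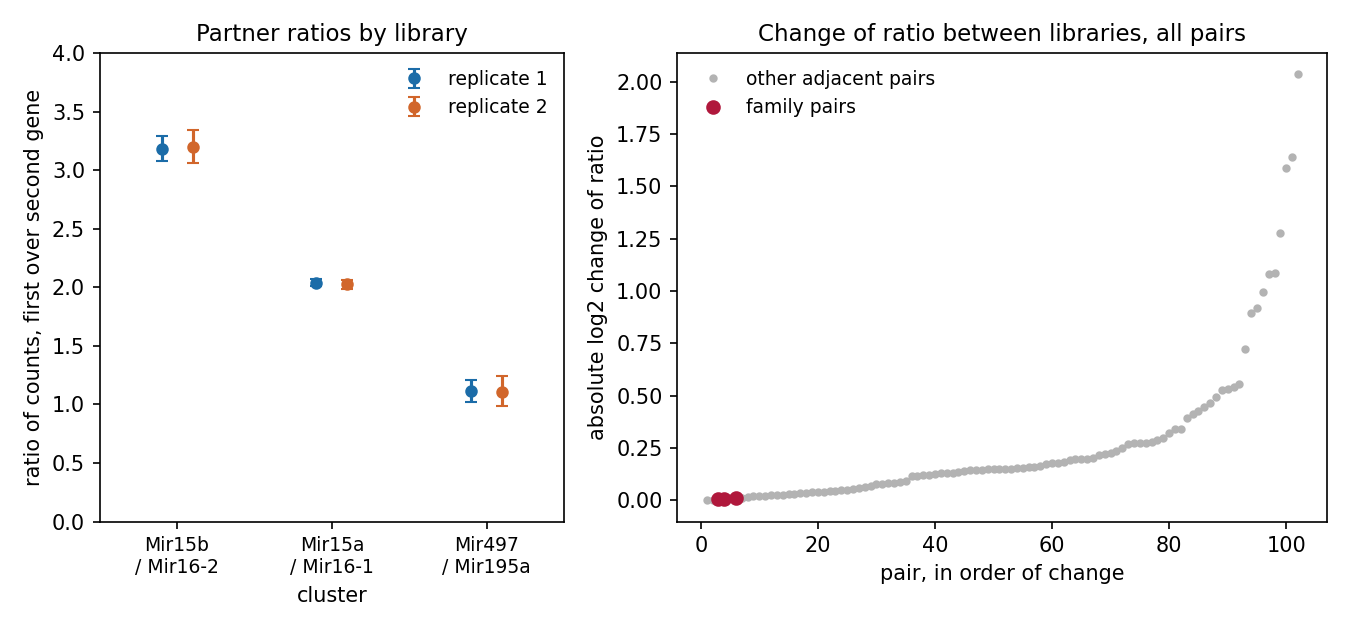
Left, the ratio of counts of the first over the second gene of each family cluster in replicate 1 (blue) and replicate 2 (orange), with exact 95% intervals. Right, the absolute log2 change of that ratio between libraries for all 102 adjacent pairs in order of size, where the 3 family pairs (red) lie at 0.0061, 0.0077 and 0.0094.

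In the RefSeq table the seed occurred in 11 genes, the 6 members and 5 others. Of those 5, Mir322 was the only one with reads. It is the mouse counterpart of human miR-424, lies on the X chromosome beside Mir503, and is known for promoting cell cycle exit in muscle precursors. It had 115267 and 76110 reads, or 20847 and 24010 CPM, which is 1.15 times the whole family in replicate 1 (1.14 to 1.16) and 1.25 times in replicate 2 (1.24 to 1.27). By these counts, with Mir16-1 and Mir16-2 uncertain, Mir322 alone exceeded the 6 members summed in both libraries. Shared miR-16-5p reads, if set apart with those that map to several places, are missing from that sum.

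Mir195b, Mir6342, Mir6353 and Mir6419 had 0 reads in both libraries, which allows at most 3 reads each, 0.543 CPM in replicate 1 and 0.946 CPM in replicate 2. Mir322 stood higher in replicate 2 (log2 ratio 0.19, exact binomial adjusted p = 7.22e-171), but not by the edgeR exact test (adjusted p = 1). Unlike in the 3 family pairs, its ratio to its neighbour Mir503 passed the Fisher exact test, at 43.7 and 48.4 (adjusted p = 0.00916). Whether that change differs from those of the family pairs was not tested.

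A list of 14 other miRNA genes linked to cell division gives the setting. It holds Mir503, the p53-induced Mir34a, Mir34b and Mir34c and their relatives Mir449a, Mir449b and Mir449c, the growth-promoting Mir17, Mir20a, Mir106b, Mir93 and Mir25, and Mir221 and Mir222, which repress the cell cycle inhibitor p27. Of these, 12 were tested, and 5 were higher and 0 lower in replicate 2, beside 19.7% higher and 18.8% lower (38.5% in all) over all genes tested, with a median log2 ratio of 0.093 beside -0.014 over all genes. The 5 were Mir17, Mir20a, Mir106b, Mir93 and Mir449a, each with an adjusted p of 1 by the edgeR exact test. All 5 averaged over 100 CPM, and of the 188 genes at such levels 58 were higher and 56 lower. Mir17 and Mir20a lie in 1 cluster and Mir106b and Mir93 in another, so the 5 are not independent. Set into this list, Mir15a at 9918 CPM stood between Mir20a (14842 ± 1029 CPM) and Mir106b (7789 ± 319 CPM), while Mir34a and Mir34c, which are also known for arresting the cell cycle, were at 62.8 ± 8.82 and 62.9 ± 5.25 CPM. Mir503, whose seed differs from that of the family at 1 base, was at 487 ± 13.7 CPM.

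The tissue label was checked against markers fixed for it. The hepatocyte miRNA Mir122 stood at 182337 and 168741 CPM and the endothelial Mir126a at 44812 and 43586 CPM. The blood markers Mir144 (7777 and 8918 CPM), Mir451a (18658 and 8843), Mir223 (19475 and 18201) and Mir142 (35024 and 41483, from the strand opposite to Mir142b) were all high. Of 6 neural genes 5 were measured and 4 were at 0, with 3.07 and 1.26 CPM in all. The muscle list, with 4 of 5 genes measured and 1 of them at 0, summed to 1430 and 2628 CPM, nearly all from Mir206. Whether the numbered copies of Mir9, Mir124a, Mir1a and Mir133a share mature sequences was not checked. If they do, their reads may stand with those that map to several places. Low counts of these genes therefore do not show that the miRNAs, or the tissues they mark, were absent. Sense miRNA counts were 5529166 and 3169882. From replicate 1 to replicate 2 the summed level of the muscle list was higher, as were Mir15a and Mir16-1, while Mir122 and Mir126a were lower. The leukocyte pair went opposite ways: Mir142 was higher and Mir223 lower (log2 ratio -0.11), and their sum was 54498 and 59684 CPM. The erythroid markers did so too: Mir144 was higher (log2 ratio 0.18) and Mir451a lower (-1.09), and their sum was 26435 and 17761 CPM. The part of depth and of these markers in the small differences of Mir15a and Mir16-1 was not tested.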

How the data were processed

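The authors deposited 1 table of raw read counts per library, with 3 columns for both strands, the gene's own strand and the opposite strand. Per the text deposited beside the tables, the genome was mm10 with GENCODE M4. The sources used here do not name an aligner, counter or trimming step. Reads assigned to no gene were left out of all sizes and tests. Names and positions came from release M21 by the stable part of each identifier, which matched 1894 of 1973, 79 with another version. One row was added for Mir497, from opposite-strand counts of the Mir497b row, and its CPM uses the same sense total as the others. edgeR 4.0.16 (R 4.3.3) gave TMM sizes and the exact test with a common dispersion, DESeq2 1.42.0 gave size factors, and SciPy 1.17.1 gave binomial and Fisher tests with intervals. The binomial test used genes with at least 10 reads summed. Both tests were checked on simulated data. Alternatives were other denominators, strands, scalings, count minimums, pair distances and single libraries. Named genes are the members, Mir497b, the nearest genes in rank, genes with the same seed and a fixed cell division list. The members and lists were chosen with earlier results of these data known. With 2 libraries of 1 group, no genes were named for a similar pattern.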

Additional observations from a re-analysis of the deposited data

Results flagged for a closer look

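Both libraries list many reads in a row apart from the genes used here: 4302465 reads in replicate 1 and 2632729 in replicate 2 mapped to several places, far above the 3 reads that a count of 0 allows. How many of them are miR-16-5p reads that match Mir16-1 and Mir16-2 alike was not tested.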

How the results depend on the processing

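The family's share of counts was 1.86% and came to 1.70% with sense and opposite-strand counts in the denominator, 1.70% with counts of both strands (1.69775 and 1.69778 before rounding) and 2.26% without Mir122 in the denominator; the cause is the changed total in each. It was 1.84% without Mir497, and 1.81% to 1.92% with either library left out. The 2 called members, and the side of the threshold of all 6, held under library totals, DESeq2 size factors, both strands and minimums of 1 or 50 counts. By the edgeR exact test 0 members and 5 of 457 genes were called, against 2 and 176. That test adds to counting error a common dispersion, which was estimated from the same 2 libraries. Mir15b, which passed in no setting, had a log2 ratio of 0.000227 on library totals, opposite in sign to -0.014. Pairs with a changed ratio numbered 36 of 102 and 20 of 70 within 1 kb, where fewer pairs were tested; in the family 0 were called in all 4 settings. All 6 members were detected at minimums of 1, 10 and 50 counts. Leaving out a library leaves no comparison of libraries to test. DESeq2 size factors and library totals moved all log2 ratios by 0.014. Depth limits Mir195a and Mir497 most, with 598 and 662 reads in replicate 2.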
